A study of Mus musculus with 2 samples.

Results

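The collagen gene family was followed in single cells of mouse back skin under imiquimod. Members were all genes whose symbol consists of Col, a number, the letter a and a further number, which gave 44 of the 31053 genes in the count table. They comprised 11 fibrillar, 6 type IV, 3 basement membrane zone, 9 fibril-associated, 4 transmembrane, 6 type VI, 3 short-chain and 2 other collagen genes. Of these, 33 had at least 50 UMIs (unique molecular identifiers, each standing for 1 captured transcript molecule) over all retained cells, and 5 had under 10 UMIs in both libraries.

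Each genotype was represented by a single library, wild type (WT) or Chrna5-/- (KO); Chrna5 encodes the alpha-5 subunit of the nicotinic acetylcholine receptor. Both groups were female mice aged 6 to 8 weeks, with strain given as C57BL/6, and both received imiquimod, a Toll-like receptor agonist that causes psoriasis-like skin inflammation. A dose of 62.5 mg of 5% cream was put on the back for 6 days and dorsal skin was taken on day 7. The labels give 5 mice per experimental group without saying whether cells were pooled, name both C57BL/6N and C57BL/6J, and describe digestion with collagenase and a sort of live cells. A vaseline control group named in the labels was not analysed here, so every value refers to imiquimod-treated skin. With 1 library per genotype no difference has a replicate check, no test was possible, and the intervals below (95%) cover counting error only.

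Collagens are triple-helical proteins that are assembled from 3 alpha chains in the endoplasmic reticulum, where prolyl and lysyl residues are hydroxylated, and are trimmed and cross-linked outside the cell. Fibrillar collagens such as types I, III and V make the fibrils of the dermis, and fibril-associated collagens coat them. Type IV forms the sheet of basement membranes, while types VII, XV, XVII and XVIII tie cells and stroma to that sheet. In skin, dermal fibroblasts are the main source of the fibrils, and loss of type VII or XVII collagen causes blistering.

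Sequencing yielded 147260653 UMIs over 14557 barcodes for WT and 123839924 UMIs over 10886 barcodes for KO. Filters on genes and mitochondrial RNA left 13938 WT and 10233 KO cells, whose median depth was 4603 and 6374 UMIs. The libraries had 49 barcodes in common, 44 of them among the retained cells. Chrna5 itself had 12 UMIs in WT and 6 in KO over all retained cells, which is too few to check the genotype labels. Cells were assigned to classes by marker genes that include no collagen, which placed 87.9% of WT and 80.8% of KO cells, and classes are called X-like because no deposited annotation was used. Of the placed cells, 10.9% in WT and 14.9% in KO only just met the minimum of markers or the lead over other lineages.

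The promoters of Col3a1, Col7a1 and Col11a1 are shown because these 3 members were all higher in the KO library by over 1.5-fold in fibroblast-like cells taken as a whole. Each run holds the 250 bases before the RefSeq transcription start (GRCm38.p6, plus strand), at chr1:45311288-45311537 for Col3a1, chr9:108953336-108953585 for Col7a1 and chr3:114030290-114030539 for Col11a1. Capitals mark matches, on either strand, to the CCAAT box, to the GC box letters GGGCGG or to the TATA box letters TATAAA.
Col3a1: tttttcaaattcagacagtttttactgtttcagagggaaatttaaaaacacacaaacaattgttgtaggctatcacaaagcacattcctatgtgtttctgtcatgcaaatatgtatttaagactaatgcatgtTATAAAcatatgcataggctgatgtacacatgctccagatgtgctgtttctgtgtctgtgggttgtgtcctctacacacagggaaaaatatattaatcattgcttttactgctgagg
Col7a1: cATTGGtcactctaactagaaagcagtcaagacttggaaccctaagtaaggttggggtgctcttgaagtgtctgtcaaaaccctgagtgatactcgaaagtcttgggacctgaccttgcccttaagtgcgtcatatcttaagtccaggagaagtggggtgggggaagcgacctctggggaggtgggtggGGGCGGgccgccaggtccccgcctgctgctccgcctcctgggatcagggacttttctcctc
Col11a1: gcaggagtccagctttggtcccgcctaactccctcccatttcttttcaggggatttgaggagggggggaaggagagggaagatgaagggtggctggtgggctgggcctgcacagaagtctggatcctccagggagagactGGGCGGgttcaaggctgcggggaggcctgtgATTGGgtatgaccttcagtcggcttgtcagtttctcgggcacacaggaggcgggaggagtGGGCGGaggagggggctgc
None of the searched motifs occurred in all 3 sequences. Col3a1 held 1 TATAAA match and neither of the others, Col7a1 held 1 CCAAT and 1 GGGCGG match, and Col11a1 held 1 CCAAT and 2 GGGCGG matches. The RefSeq table held 38 collagen windows for 35 of the 44 members. CCAAT occurred in 13 of the 38 windows (34.2%) against 33.9% of all 32851 windows, GGGCGG in 22 (57.9%) against 32.7%, and TATAAA in 5 (13.2%) against 12.4%. A match describes these letters only.

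Collagen transcripts came mostly from the stromal classes. Levels are UMIs of a gene per 1000000 UMIs of the class (CPM), and the collagen level is the sum over the 44 members. Pericyte and smooth muscle-like cells had the highest collagen level, 6402 CPM in WT (45 cells) and 5858 CPM in KO (162 cells). Fibroblast-like cells followed with 3370 CPM in WT and 4289 in KO, and vascular endothelial-like cells had 2407 and 2299 CPM. Because fibroblast-like cells were numerous, 2369 in WT and 2640 in KO, they held 56.5% of all collagen UMIs in WT and 64.6% in KO. Keratinocyte-like cells (8444 and 3681) held 30.5% and 12.9%, at a level of 332 and 251 CPM. The share of a class reflects how many of its cells survived digestion and sorting as well as their RNA.

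**Figure D1:**
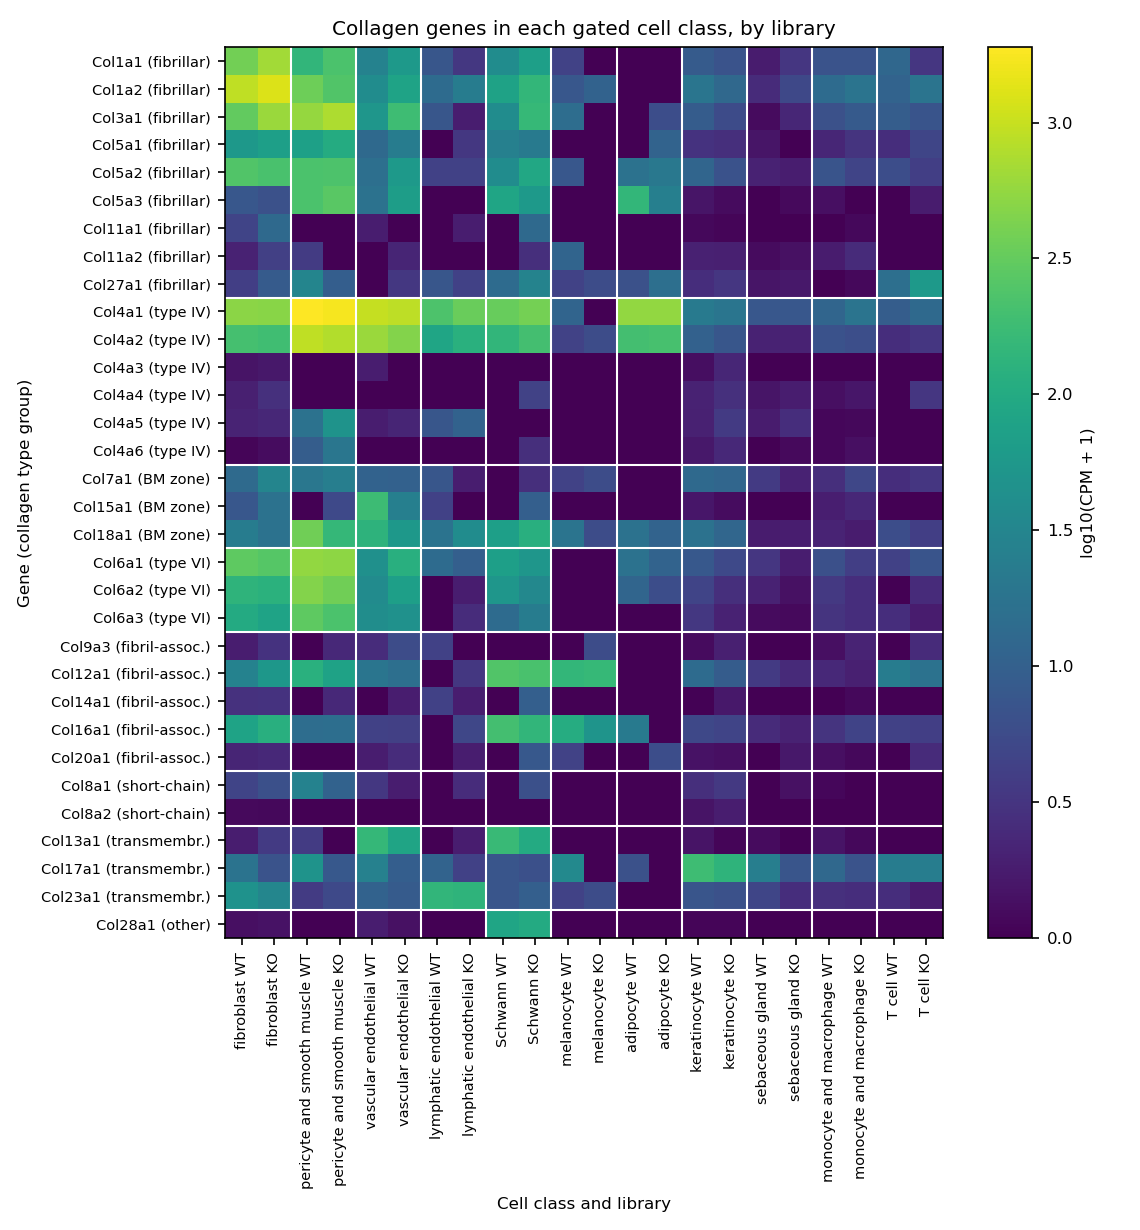
Level of each collagen gene with at least 50 UMIs over the classes shown (vertical axis, ordered by collagen type group) in each cell class of the WT and KO libraries (horizontal axis), as log10 of CPM plus 1. Col1a1 and Col1a2 are brightest in the fibroblast columns, Col4a1 and Col4a2 in the pericyte and smooth muscle columns, and Col17a1 in the keratinocyte columns.

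In fibroblast-like cells the type groups with the highest levels were fibrillar, type IV and type VI. Col1a2, which encodes the alpha-2 chain of type I collagen, was the most abundant member there, with 920 CPM in WT and 1264 in KO, ranking 167th and 116th among all genes of the class. Col1a1, the partner chain, had 374 and 664 CPM and ranked 384th and 238th. Type III collagen (Col3a1), the thin-fibril collagen of young and healing dermis, had 311 CPM in WT and 615 in KO. All 3 values were higher in KO. Col4a1, of the basement membrane network, stood at 505 CPM in WT, above Col1a1 and Col3a1, and at 496 CPM in KO, below both. Col6a1 had 290 and 256 CPM, slightly lower in KO.

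Other stromal classes had their own members at high levels. Pericyte and smooth muscle-like cells were rich in Col4a1, at 1896 CPM in WT and 1702 in KO, and in Col5a3, a minor type V chain, at 225 and 272 CPM. The Col5a3 level there was far above its 6.69 and 5.45 CPM in fibroblast-like cells. Lymphatic endothelial-like cells had Col23a1, a transmembrane collagen, at 142 and 136 CPM, close together in the 2 libraries, against 45.3 and 30.7 CPM in fibroblast-like cells. Schwann-like cells (34 in WT and 134 in KO) had Col28a1, a collagen known from peripheral nerve, at 83.4 and 99.6 CPM, against 0.369 and 0.434 CPM in fibroblast-like cells. Their Col12a1 level was 244 and 217 CPM. Melanocyte-like cells, with 57 cells in each library, had Col12a1 at 148 and 154 CPM, and beside it Col16a1 at 107 and 48.1 CPM. Both genes encode collagens that decorate fibrils. Adipocyte-like cells were only 9 and 10 cells, with Col4a1 at 553 and 554 CPM.

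Type IV chains are built into heterotrimers of 2 Col4a1 and 1 Col4a2 chain, and the 2 genes lie head to head on chromosome 8. Their RefSeq promoter windows, chr8:11312777-11313076 on the minus strand for Col4a1 and chr8:11312555-11312854 on the plus strand for Col4a2, share 78 bases. These windows hold 300 bases, including the 50 after each start, and the 250-base runs before the starts do not overlap. Per UMI, without correction for transcript length, Col4a1 exceeded Col4a2 in each of the 18 combinations of class and library measured, by a ratio between 1.63 and 6.60. In fibroblast-like cells the ratio was 2.47 in WT and 2.67 in KO, and in vascular endothelial-like cells 1.63 and 1.92. For type I, the ratio of Col1a1 to Col1a2 in fibroblast-like cells was 0.407 (interval 0.396 to 0.418) in WT and 0.526 (0.515 to 0.537) in KO. These intervals do not overlap, but they cover counting error only and come from 1 library each.

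Between the libraries, the summed collagen level of fibroblast-like cells was 1.27 times as high in KO as in WT (1.26 to 1.29). Of the 29 members measured there with at least 20 UMIs, 11 were higher in KO by at least 1.5-fold, against 18.5 percent of the 13166 genes measured, and 1 was lower, against 9.33 percent. The median log2 ratio of the 29 members was 0.40 and that of all genes 0.14, and scaling by the median ratio over genes gave a summed collagen ratio of 1.16. Without the members that free RNA could supply (under 20% of the level in another class of both libraries), 9 of 23 were higher, against 17.5 percent of genes, and 0 lower, against 5.64 percent. No test stands behind the 0, since 1 library per genotype allows none.

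The higher members were 5 fibrillar, 2 fibril-associated, 2 basement membrane zone, 1 type IV and 1 transmembrane gene. Col1a1 was 1.78-fold higher in KO (1.73 to 1.83) and Col3a1 1.98-fold (1.92 to 2.04), while Col1a2 was 1.37-fold higher (1.35 to 1.40). The minor fibrillar genes Col11a1 (3.74 and 12.4 CPM, 3.30-fold) and Col11a2 (1.05 and 3.23 CPM, 3.07-fold) had 2 of the 3 largest ratios, at low levels. Their chains are best known from cartilage fibrils. Col12a1, whose product bridges fibrils, had 27.1 CPM in WT and 52.9 in KO, a ratio of 1.95 (1.75 to 2.17). Col16a1, at 78.4 and 116 CPM, came just below the fold used (1.48). Col7a1, which encodes the anchoring fibril of the dermal-epidermal junction, had 12.7 CPM in WT and 30.2 in KO, a ratio of 2.38 (2.05 to 2.78). Col15a1, a multiplexin of basement membranes, had 6.85 and 16.4 CPM (2.39). Col27a1 had 58 UMIs in WT and 159 in KO, 3.06 and 7.67 CPM (2.51). Those of KO, but not of WT, came largely from few cells, described with the clusters. Of the 6 members on chromosome 9, the chromosome that carries Chrna5, Col7a1, Col12a1 and Col5a3 were measured here, the last at 6.69 and 5.45 CPM; whether that position bears on their values was not tested.

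Type IV, V and VI genes differed less. The type IV group summed to 713 CPM in WT and 686 in KO (ratio 0.962), and Col4a2 had 205 and 186 CPM. Type VI, the beaded filament collagen around cells, summed to 523 and 460 CPM (0.880), with Col6a1, Col6a2 and Col6a3 between 0.810 and 0.918. Type V differed little, with Col5a2 at 240 and 219 CPM and Col5a1 at 54.7 and 69.1 CPM. Fibrillar members made up 56.8% of the fibroblast collagen UMIs in WT and 66.7% in KO, and type VI 15.5% and 10.7%. Col23a1 was lower in KO at 45.3 and 30.7 CPM (0.678), as was Col18a1 at 22.9 and 16.1 CPM (0.701), neither past 1.5-fold. Col17a1, the keratinocyte hemidesmosome collagen, was the 1 lower member, at 16.7 and 5.93 CPM (0.355, interval 0.286 to 0.439), a level that free RNA could supply. Col13a1, a transmembrane collagen, had 0.843 and 2.65 CPM, a ratio of 3.15 on 16 and 55 UMIs. Most of these UMIs came from few cells, described with the clusters. Col13a1 and Col27a1 stood at levels that free RNA could supply. Col8a1, of the short-chain group, had 3.74 and 5.35 CPM.

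**Figure D2:**
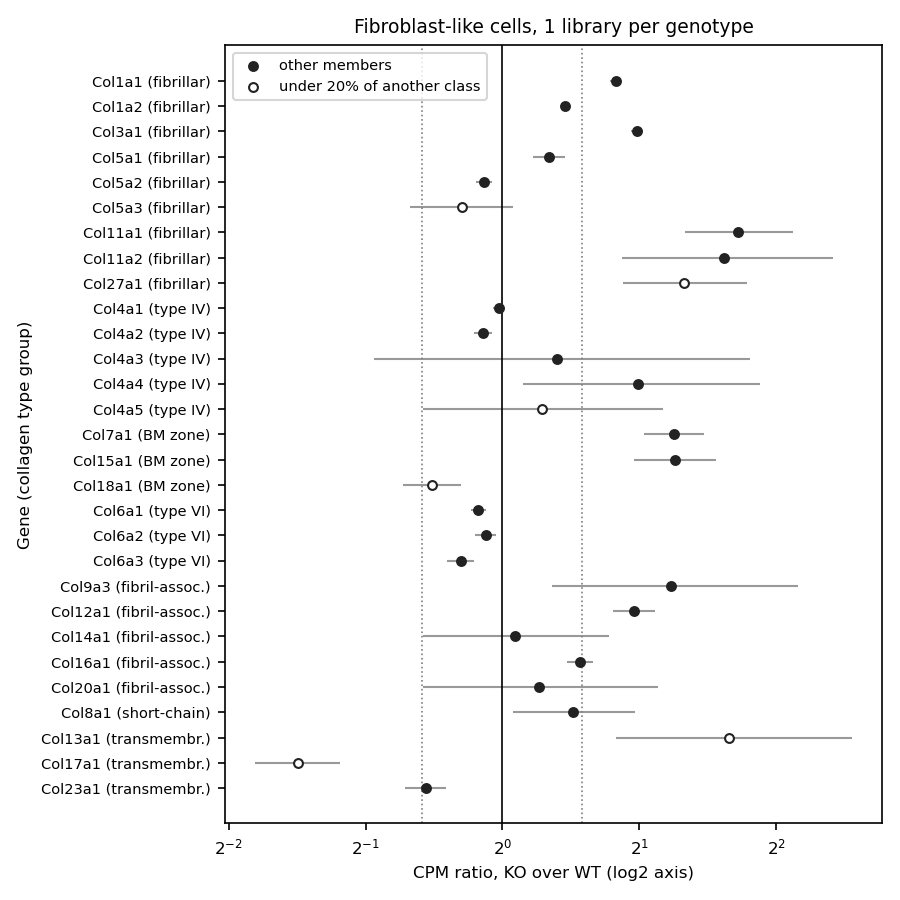
Ratio of CPM, KO over WT, of each measured collagen gene in fibroblast-like cells (points, log2 axis) with its 95% counting interval (bars). Dotted lines mark 1.5-fold either way, and open points are genes under 20% of the level in another class. Col1a1 at 1.78, Col3a1 at 1.98 and Col12a1 at 1.95 lie right of the upper line, while Col6a1 at 0.885 and Col4a1 at 0.981 lie near 1.

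Markers of other cells moved with this comparison. In fibroblast-like cells the 12 keratinocyte markers summed to 1472 CPM in WT and 664 in KO, lower in KO for 12 of 12, with none at 0. The fibroblast markers summed to 13760 and 9306 CPM, with 5 of 10 higher and 5 lower in KO. The 10 pericyte and smooth muscle markers summed to 26.8 and 62.0 CPM, higher in KO for 10 of 10. Erythroid markers summed to 360 and 9.07 CPM. The part of these differences in the collagen ratios was not tested.

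The difference between the libraries was not of 1 direction over the cells. Among cells with at least 1000 UMIs, the median cell had 2294 collagen CPM in WT and 2075 CPM in KO. At the 90th percentile the values were 6222 CPM in WT and 9614 in KO. The 2 curves met at the 65th percentile, with 3027 CPM in WT and 3044 in KO, and parted above it.

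**Figure D3:**
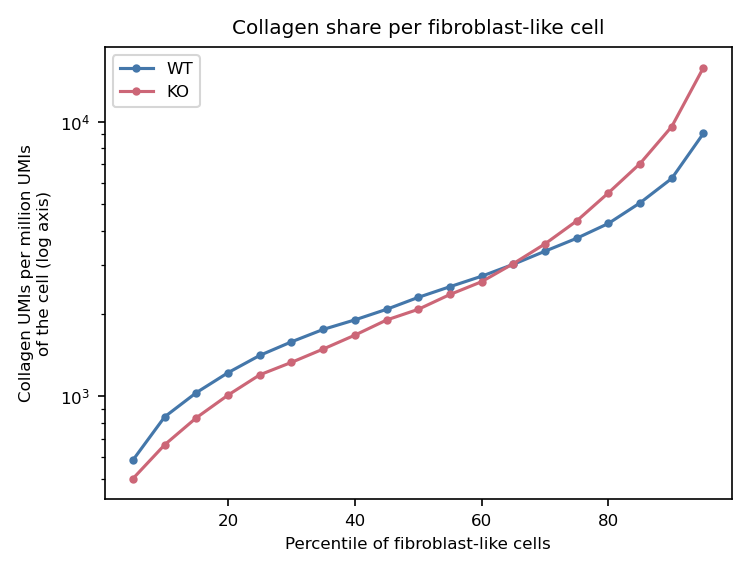
Collagen CPM of each fibroblast-like cell (vertical, log axis) at each 5th percentile of the cells with at least 1000 UMIs (horizontal), for WT and KO. KO lies below WT at the median (2075 against 2294) and above it at the 90th percentile (9614 against 6222).

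Clusters built from variable genes without any collagen separated these cells further, and the most populated cluster differed between the libraries, cluster 11 in WT and cluster 17 in KO. Cluster 11, led by the inflammatory genes Ifi205, Cxcl2, Cxcl5, Cxcl13 and Ptx3, held 49.6% of WT and 26.7% of KO fibroblast-like cells, and cluster 17 held 1.14% and 27.5%. In cluster 11 the direction was the opposite of that in the whole class: collagen stood at 2514 CPM in WT and 1537 in KO, a ratio of 0.612 (0.596 to 0.627). Col1a1 in cluster 11 had 198 CPM in WT and 76.2 in KO (0.384), and Col3a1 had 132 and 42.8 CPM (0.323). Col1a2 had 692 and 358 CPM there (0.518), so Col1a1 relative to Col1a2 was lower in KO, the opposite of the whole class. Col6a1 was also lower there, at 249 and 113 CPM, and Col4a1 was nearly even, at 492 and 463 CPM. Col12a1 was higher in KO in this cluster too, at 30.7 and 69.9 CPM (2.28).

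Cluster 12, led by the matrix genes Mfap4, Cemip, Ctgf, Postn and Eln, held 359 WT and 423 KO cells. Its collagen level was 3945 CPM in WT and 8449 in KO, a ratio of 2.14 (2.09 to 2.19). Col1a1 had 340 CPM in WT and 1315 in KO there, and Col3a1 331 and 1584 CPM. Cluster 18, led by the immediate early and stress genes Fos, Hspa1a and Egr1, held 173 and 491 cells, with collagen at 4711 and 7474 CPM (1.59). Collagen was thus higher in KO in clusters 12 and 18 and lower in cluster 11. The fibroblast-like cells of cluster 3, 54 in each library and led by Tnn, Postn and Tbx3, had 1733 and 4661 CPM (2.69). Cluster 3 itself is not a fibroblast cluster: it held 839 cells of no class, 164 keratinocyte-like and 108 fibroblast-like cells, and the leading genes of the last include Acta2, of the pericyte and smooth muscle list, and Postn, of the follicle list. Genotype and library cannot be told apart.

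Cluster 31, led by Serpine2, Lef1 and Klf7, held only 22 WT and 62 KO fibroblast-like cells. Their median depth was 33834 UMIs in WT and 50925.5 in KO, against 8119.5 and 7118 in cluster 11. Class levels pool UMIs, so cells this deep weigh more in them. Cluster 31 held much of the Col13a1 signal and, in KO only, much of the Col27a1 signal. It gave 9 of the 16 Col13a1 UMIs in WT and 39 of the 55 in KO, at 12.2 CPM in both libraries. Col27a1 had 11 UMIs there in WT and 113 in KO, 14.9 and 35.4 CPM. Outside cluster 31, Col27a1 had 47 and 46 UMIs, 2.58 and 2.62 CPM, a ratio of 1.02 (0.663 to 1.56). The class ratio of 2.51 thus rests on the cells of cluster 31. Col13a1 had 7 and 16 UMIs outside the cluster, a ratio of 2.38 with an interval that includes 1 (0.925 to 6.83). The summed collagen ratio outside cluster 31 was 1.39 (1.37 to 1.40). In those same cells Col3a1 was 2.24-fold higher and Col23a1 had a ratio of 0.497, past 1.5-fold.

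Other clusters were nearly confined to 1 library, which gives levels but no comparison. Cluster 16, led by Prok2, Pi15 and Hgf and rich in Saa3, held 460 WT and 7 KO cells, and its WT cells had 5793 CPM of collagen, including 883 CPM of Col1a1. Cluster 17, led by Ereg, Slc16a6 and Stc1, held 27 WT and 727 KO cells, and its KO cells had 4434 CPM, including 638 CPM of Col1a1. Cluster 15, led by Fmod, Coch and Tnmd, genes of tendon and fascia, held 21 and 106 cells. Its KO cells had 7236 CPM of collagen, of which Col1a2 gave 3400 CPM and Col3a1 only 36.8 CPM. With 1 library per genotype, a cluster mostly of 1 library may be that library and not a cell type.

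**Figure D4:**
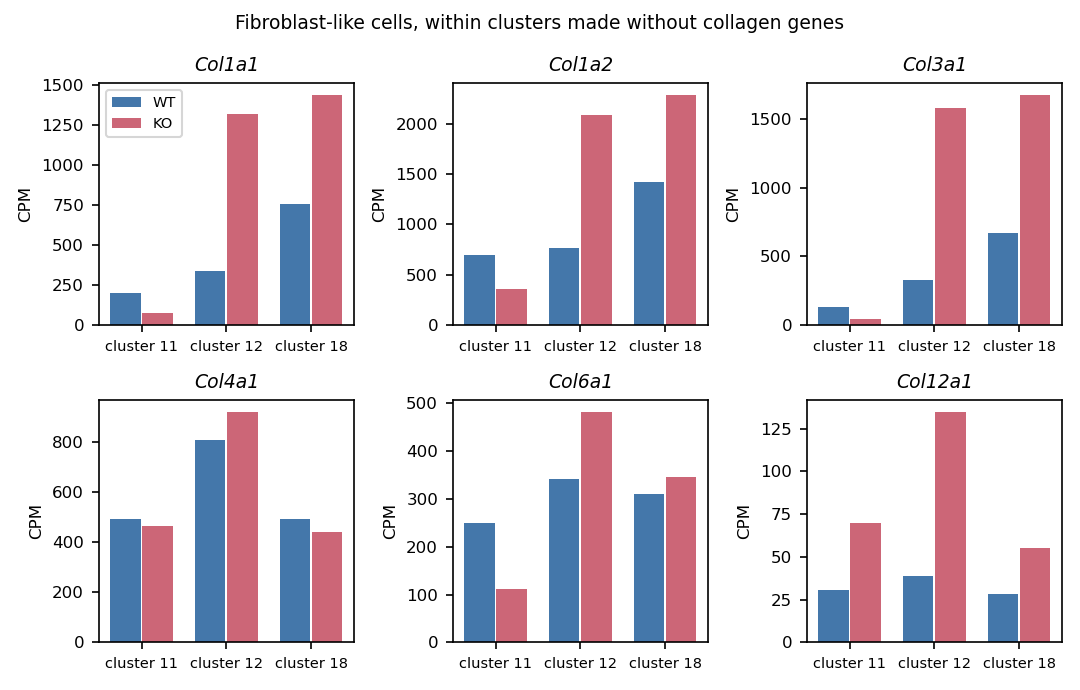
CPM of 6 collagen genes (bars, 1 panel per gene, each with its own vertical axis from 0) in fibroblast-like cells of clusters 11, 12 and 18, WT and KO, 1 library each and so without error bars. Col1a1 and Col3a1 are lower in KO in cluster 11 (198 to 76.2 and 132 to 42.8 CPM) and higher in KO in clusters 12 and 18, whereas Col12a1 is higher in KO in all 3.

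Collagen was higher in KO in the marker subset with enough cells, and in the cells of no marker subset, which are most of the class. In the Pi16 and Dpp4 subset (258 WT and 436 KO cells), collagen stood at 3410 and 5113 CPM, a ratio of 1.5. Col3a1 there had 260 CPM in WT and 824 in KO. Cells of neither this nor the other marker subsets (2050 and 2004) had 3445 and 4422 CPM, a ratio of 1.28. The Fmod and Tnmd subset, with 23 and 120 cells, had 4455 and 6967 CPM, and carried Col11a1 at 179 and 174 CPM. The whole class had 3.74 and 12.4 CPM of it, and the subset gave 32 of the 71 Col11a1 UMIs in WT and 161 of the 256 in KO. In cells of neither subset, the Col11a1 ratio was 2.11 (1.36 to 3.33).

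Genes that handle collagen chains were described from 3 lists of enzymes, chaperones and receptors. Of 19 measured genes for hydroxylation, glycosylation and folding in fibroblast-like cells, 2 were higher and 3 lower in KO (10.5% and 15.8%), against 18.5 and 9.33 percent of all genes measured there. Their median log2 ratio was 0.01, against 0.14 for all genes. Plod2, the lysyl hydroxylase of collagen telopeptides, had the largest ratio, at 5.69 CPM in WT and 22.8 in KO (4.0, interval 3.24 to 4.98). The lowest ratio was that of P3h2, a prolyl 3-hydroxylase, at 1.95 and 1.11 CPM (0.569). Ppib, a prolyl isomerase and the most abundant of the list, had 274 and 169 CPM (0.617). Serpinh1, a collagen-specific chaperone, had 154 and 231 CPM, just below 1.5-fold. Of 13 measured genes for propeptide removal and assembly, 2 were higher and 1 lower (15.4% and 7.69%), with a median of -0.16. Sparc, a collagen-binding matricellular protein, led this list at 613 and 940 CPM (1.53), and Fn1, the fibronectin on which fibrils assemble, had 47.9 and 118 CPM (2.46). Pcolce, which speeds C-propeptide removal, was lowest among those with at least 50 UMIs, at 50.6 and 34.0 CPM (0.672), within 1.5-fold.

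Of 8 measured collagen receptor genes in fibroblast-like cells, 2 were higher and 2 lower, with a median of 0.17. Itgb1, the shared beta-1 integrin chain, was the most abundant and had 534 CPM in WT and 575 in KO. Itga11, the fibroblast receptor chain for fibrillar collagen, had 2.90 and 9.31 CPM (3.21), and Itga2 had 106 UMIs in WT and 31 in KO (0.268). The Itga2 level was under 20% of its keratinocyte level in both libraries, so free RNA could supply it. The keratinocyte markers were lower in KO in this class too, and their part in the Itga2 ratio was not tested. In keratinocyte-like cells, 2 of 19 folding, 1 of 13 assembly and 1 of 9 receptor genes were higher in KO, and 4, 6 and 2 were lower, against 14.6 and 13.3 percent of all genes measured there. Itga2 was the lowest of the receptor genes there, at 42.3 and 14.3 CPM (0.339). In vascular endothelial-like cells, 2 of 18, 1 of 8 and 1 of 5 were higher and 8, 2 and 2 lower, against 15.4 and 17.5 percent of all genes measured there. Serpinh1 had 143 and 296 CPM there (2.07), while Ppib had 397 and 205 CPM (0.516).

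In keratinocyte-like cells the summed collagen level was lower in KO, with 332 CPM in WT and 251 in KO, a ratio of 0.755 (0.741 to 0.769). Of 32 members measured, 7 were higher by 1.5-fold, against 14.6 percent of the 15541 genes measured, and 11 were lower, against 13.3 percent. The median log2 ratio was -0.26 for the members and 0.04 for all genes. All 11 lower members stood at levels that free RNA could supply, such as Col1a2 at 17.6 and 11.7 CPM, or Col12a1 at 13.1 and 8.00 CPM. The 10 fibroblast markers moved with them, summing to 268 CPM in WT and 117 in KO in these cells, lower for 9 of 10 and none at 0. The part of that difference was not tested. Without the members that free RNA could supply, 8 of the 32 were left, of which 3 were higher, against 13.6 percent of genes, and 0 lower, against 9.3 percent.

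Col17a1, the hemidesmosome collagen of basal keratinocytes, made up most of the keratinocyte signal. It had 180 CPM in WT and 134 in KO, a ratio of 0.741 (0.722 to 0.759), within 1.5-fold. In the basal subset (3989 WT and 1889 KO cells) Col17a1 stood at 256 and 196 CPM, in the follicle subset at 445 and 232 CPM, and in the suprabasal subset at 30.9 and 18.2 CPM. In both libraries it was highest in follicle cells, next in basal cells and lowest in suprabasal cells. The 6 basal markers summed to 7468 CPM in WT and 4557 in KO over the class, most of it Krt14 at 5463 and 3447 CPM. Krt5, Krt14, Itga6 and Itgb4 were lower in KO. Krt15, at 104 and 192 CPM, and Trp63, at 44.5 and 55.4 CPM, were higher. The part of these markers in the Col17a1 ratio was not tested. Within clusters its ratio ranged from 0.474 in cluster 14, with 67.7 and 32.1 CPM, to 1.33 in cluster 10, with 116 and 154 CPM. Cluster 14 is not a keratinocyte cluster alone: it held 368 keratinocyte-like and 178 sebaceous gland-like cells. Col7a1, which keratinocytes also secrete, had 12.3 and 10.9 CPM in the class (0.893), and Col8a1 had 1.75 and 2.51 CPM (1.43).

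Keratinocyte depth differed between the libraries, with a median of 2778 UMIs per cell in WT and 14461 in KO. Clusters 2, 13, 19 and 22 were nearly all WT, and clusters 7 and 35 were nearly all KO. Within the 7 clusters with at least 50 keratinocyte-like cells of each library, the ratio of summed collagen lay between 0.748 in cluster 9 and 1.34 in cluster 10, and in 4 clusters it was above 1. Cluster 20 had 806 and 827 CPM (1.03), and cluster 10 had 188 and 251 CPM. The lower level of the class as a whole was not seen in those 4 clusters.

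The minor type IV chains were higher in KO, at very low levels. Col4a3 had 33 UMIs in WT and 87 in KO, 0.318 and 1.23 CPM, a ratio of 3.86 (2.56 to 5.96), and Col4a5 had 1.02 and 2.58 CPM, a ratio of 2.53 (1.98 to 3.25); free RNA could supply the Col4a5 level. These chains form the specialised type IV networks of kidney and skin basement membranes. Col4a3 was 3.93-fold higher in the basal subset alone, at 0.453 and 1.78 CPM, and the Col4a5 ratio there was 2.46. Over the alternatives tried, the Col4a3 ratio lay between 2.51 and 5.32 and that of Col4a5 between 1.11 and 4.89. Col4a3 and Col4a4 lie side by side on chromosome 1, as Col4a5 and Col4a6 do on chromosome X, and Col4a4 and Col4a6 were the other type IV members past 1.5-fold. The major chain Col4a1 was not higher, with 20.8 CPM in WT and a ratio of 0.866, and its level in these cells was one that free RNA could supply. Col9a3, of fibril-associated type IX, had 26 and 65 UMIs, a ratio of 3.66. It was 0.959 on 4 and 2 UMIs once cells were thinned to 1000 UMIs. Thinning left out cells under 1000 UMIs, so it used 6491 WT and 3385 KO keratinocyte-like cells.

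Vascular endothelial-like cells (100 in WT and 207 in KO) had nearly the same summed collagen level in both libraries, 2407 and 2299 CPM, a ratio of 0.955 (0.913 to 0.999), but a different make-up. By clusters, 75 WT and 185 KO cells of this class lay in the vascular cluster, against 25 and 20 in the lymphatic endothelial cluster. Within the vascular cluster alone the ratio was 0.946. Of 18 members measured in the whole class, 8 were higher in KO, against 15.4 percent of the 8474 genes measured, and 4 were lower, against 17.5 percent. The higher members were all fibrillar or type VI. Leaving out members that free RNA could supply, Col1a1, Col1a2 and Col6a2 among them, 5 of 11 were higher and 3 lower. The share over all genes is not given for that set. Col3a1 had 64 UMIs in WT and 446 in KO, 52.1 and 181 CPM, a ratio of 3.46 (2.66 to 4.58). Col5a3 had 16.3 and 65.2 CPM (4.0), Col5a2 14.7 and 57.5 CPM (3.92), and Col6a1 43.2 and 116 CPM (2.68). Fibrillar genes gave 6.73% of the collagen UMIs of the class in WT and 20.4% in KO. With cells of at least 1000 UMIs thinned to 1000, only 2 of the 18 members still had 20 UMIs. Neither of them was past 1.5-fold, and thinning gives no count for the others. The thinned Col3a1 ratio was 2.60 on 3 and 16 UMIs, and that of Col5a3 was 1.46 on 2 and 6.

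The lower members were those of the vessel basement membrane zone and cell surface. Col15a1, a multiplexin of capillary basement membranes, had 213 UMIs in WT and 61 in KO, 173 and 24.7 CPM, a ratio of 0.142 (0.105 to 0.190). Col18a1, the source of the endostatin fragment, had 132 and 54.2 CPM (0.411), and Col13a1 had 151 and 82.2 CPM (0.543). The main network chains Col4a1 and Col4a2 differed less, with 988 and 907 CPM (0.917) and 605 and 473 CPM (0.782). As sums, the basement membrane zone group had a ratio of 0.280, the transmembrane group 0.527 and the type IV group 0.866. Col17a1 was the 4th lower member, at 26.9 and 8.50 CPM, and free RNA could supply it.

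**Figure D5:**
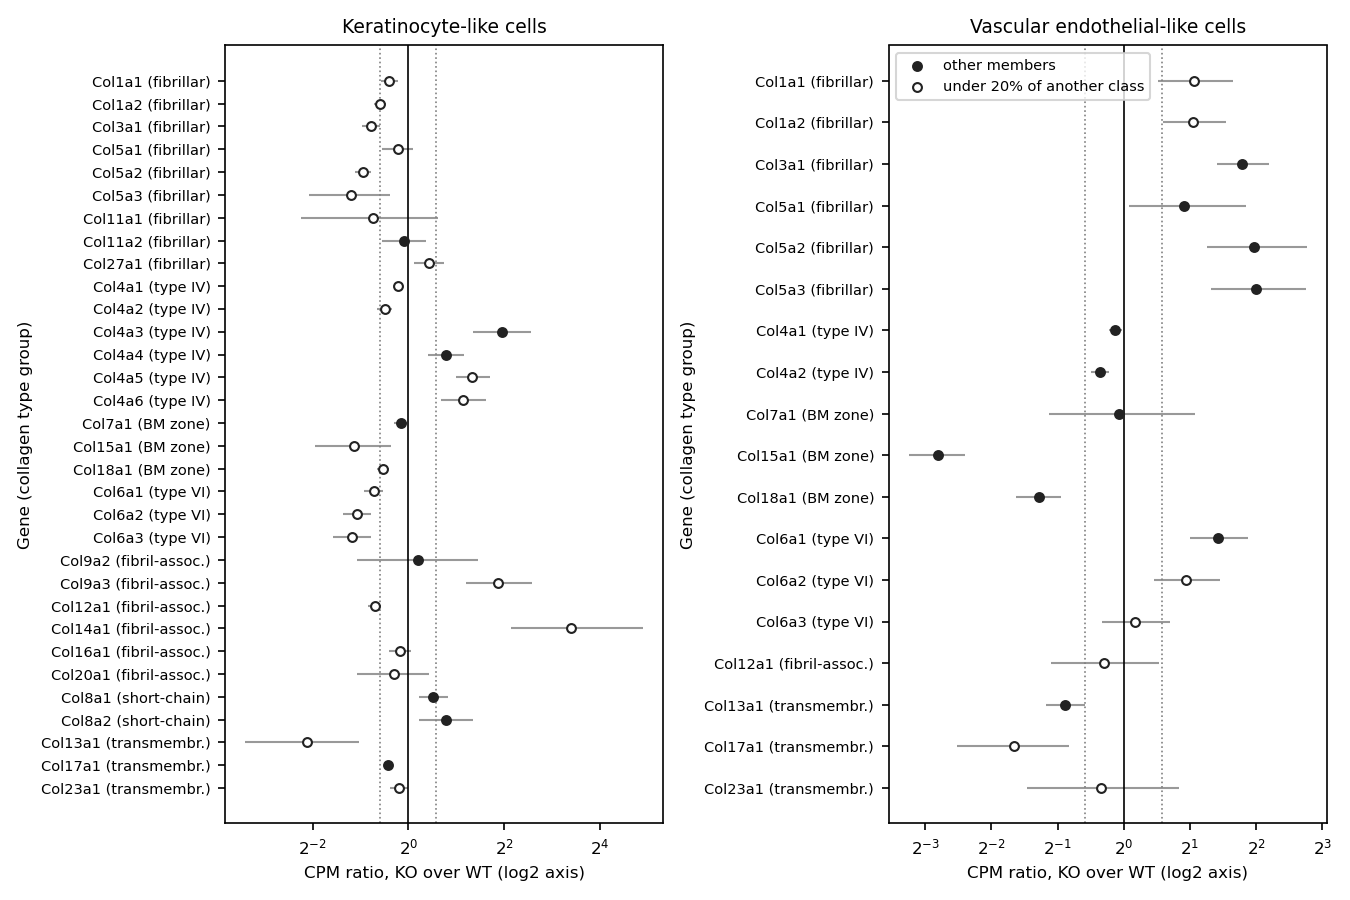
Ratio of CPM, KO over WT, of each measured collagen gene in keratinocyte-like (left) and vascular endothelial-like cells (right), drawn as in the plot of fibroblast ratios, on log2 axes of different range. In keratinocyte-like cells the minor type IV genes lie to the right (Col4a3 at 3.86) and Col1a2, Col3a1 and Col6a1 to the left as open points, while in vascular cells the fibrillar genes lie to the right (Col3a1 at 3.46) and Col15a1 to the left (0.142).

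Other cell markers moved with the vascular values as well. The 10 pericyte and smooth muscle markers summed to 673 CPM in WT and 1260 in KO in these cells, higher in KO for 8 of 10 and none at 0, and Rgs5 alone had 309 and 863 CPM. The 10 fibroblast markers were lower in KO for 7 of 10, with 248 and 111 CPM in sum, and the 12 keratinocyte markers for 12 of 12, with 1544 and 454 CPM. The 6 lymphatic endothelial markers summed to 1938 and 862 CPM, with 3 higher and 3 lower in KO. Ccl21a alone went from 1511 to 374 CPM, while Prox1 had 44.0 and 134 CPM. The 10 vascular markers summed to 5186 and 4155 CPM, lower in KO for 7 of 10. Erythroid markers were higher in KO for 4 of 4, at 103 and 767 CPM in sum, with Hbb-bs at 65.1 and 541 CPM. Pericyte and smooth muscle-like cells had Col5a3 and Col3a1 at 225 and 574 CPM in WT and 272 and 755 CPM in KO. The part of these markers in the collagen ratios was not tested.

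Removing the cells with the highest doublet scores left 74 WT and 183 KO vascular cells. The scores come from a caller that marked 0 WT and 67 KO cells as doublets, so how well they rank doublets is in doubt. Col3a1 then had 12 UMIs in WT and 442 in KO, 13.1 and 196 CPM, a ratio of 15.0 (8.48 to 29.2), and Col6a1 14 and 278 UMIs, a ratio of 8.07. The pericyte and smooth muscle markers still summed to 573 CPM in WT and 1279 in KO. Col15a1 was 0.124 and Col18a1 0.391 of the WT level in these cells.

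The remaining compared classes had few measured members. In lymphatic endothelial-like cells (53 and 112) 2 of 5 were higher, against 22.8 percent of genes, and 0 lower, against 13.4 percent, and Col4a1 had 228 and 333 CPM, a ratio of 1.46 (1.13 to 1.92). In melanocyte-like cells 0 of 2 were higher, against 19.0 percent, and 1 was lower, against 12.5 percent: Col16a1, on 31 and 10 UMIs, a ratio of 0.452 (0.198 to 0.946). In sebaceous gland-like cells (78 and 110) 1 of 4 was higher, against 12.1 percent, and 2 were lower, against 14.3 percent, with Col17a1 at 24.4 and 6.41 CPM. All 4 sebaceous members stood at levels that free RNA could supply. Thinned to 1000 UMIs, none of them had 20 UMIs, and Col17a1 had 1 in WT and 4 in KO. None of these counts comes from a test.

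T cell-like cells (136 in WT and 317 in KO) had 5 measured members, of which 2 were higher, against 21.6 percent of genes, and 0 lower, against 9.14 percent. Col27a1, a fibrillar collagen best known from cartilage, was the only member above 50 CPM there. It had 9 UMIs in WT and 77 in KO, 14.9 and 58.6 CPM, a ratio of 3.94 (1.97 to 8.95). Fibroblast-like cells had only 3.06 and 7.67 CPM of it, below the T cell-like level in both libraries. With cells thinned to 1000 UMIs the T cell ratio was 2.15. In monocyte and macrophage-like cells (828 and 748) the collagen level was 82.4 CPM in WT and 88.5 in KO, and 4 of 14 members were higher, against 13.2 percent, and 3 lower, against 11.6 percent. All 14 stood at levels that free RNA could supply, led by Col1a2 at 13.1 and 17.5 CPM and Col4a1 at 10.6 and 17.3 CPM.

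Col17a1 was also counted outside the keratinocytes. It had 11.8 CPM in WT and 5.84 in KO in monocyte and macrophage-like cells, 16.7 and 5.93 CPM in fibroblast-like cells, and 26.9 and 8.50 CPM in vascular endothelial-like cells. The KO value was the lower one in each of these 3 classes, and each was under 20% of the keratinocyte level of its library. In T cell-like cells it had 23.1 and 23.6 CPM, with no such difference in level.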

How the data were processed

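Single-cell RNA was measured in 1 WT and 1 KO library. Per the file headers, the deposited matrices hold whole-number UMI counts without normalization. Cell Ranger 3.0.2, Seurat 3.0 and mm10 appear in the labels, per the submitters' processing notes, and the matrix headers give software version 3.1.0; how barcodes were chosen is not stated there. Barcodes were kept from 200 genes upward and up to 10% mitochondrial UMIs. A marker counted as present from 20% of its level in its highest cluster, and a class needed 3 markers and a lead of 2 over every other lineage. These thresholds were chosen with the data in view, and the members and gene lists were chosen with earlier results of these data known.

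Counts were summed per class and library and scaled to CPM (Python 3.11.15, numpy 2.4.6, scipy 1.17.1). Classes with at least 50 cells in each library were compared over genes with at least 20 UMIs, using 1.5-fold in place of a test. Ratios have exact conditional binomial intervals at 95%. Their computation was checked on simulated Poisson counts, the same counting model, without spread between cells or libraries. That check therefore says nothing about such spread. Of simulated unchanged genes, 4.57% in fibroblast-like and 10.2% in vascular endothelial-like cells were past 1.5-fold. Named members of a class had at least 50 CPM, were the most abundant of their type group, or had one of the 3 largest ratios either way on at least 50 UMIs. From each list of collagen-handling genes, the most abundant gene and the largest ratio either way were named in fibroblast-like cells. Other genes, such as Serpinh1, Col4a4, Col4a6 and Col27a1 outside T cells, were named after their values were seen. Scrublet (scanpy 1.11.5) called 0 WT and 67 KO doublets; its calls were not used and doublets were kept, and its scores served in 1 alternative only. The 36 clusters used 2000 variable genes without the 18 collagens among them, 30 components, 15 neighbours and Leiden resolution 1. Gene positions came from GENCODE M21 and promoters from RefSeq, both on GRCm38. Alternatives covered the gate, filters, depth, doublets, scaling, fold and UMI minimum.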

Additional observations from a re-analysis of the deposited data

Results flagged for a closer look

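Some members were past 1.5-fold, with an interval that leaves out 1, one way in 1 class and the other way in another. All ratios are KO over WT, and the difference between classes was not tested. Fibrillar and type VI genes were higher in vascular endothelial-like cells and lower in keratinocyte-like cells: Col1a2 had ratios of 2.07 and 0.662, and 2.66 in sebaceous gland-like cells. Col5a2 had 3.92 in vascular and 0.521 in keratinocyte-like cells, and Col5a3 had 4.0 and 0.437. Col6a1 had 2.68 and 0.604, and Col6a2 had 1.92 and 0.477. Col3a1 was higher in fibroblast-like (1.98) and vascular (3.46) cells and lower in keratinocyte-like cells (0.584). In keratinocyte-like cells all of these stood at levels that free RNA could supply. So did Col1a2 and Col6a2 in vascular endothelial-like cells, and Col1a2 in sebaceous gland-like cells.

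Col12a1 was higher in fibroblast-like cells (1.95) and lower in keratinocyte-like cells (0.613). Col13a1 had a ratio of 3.15 in fibroblast-like, 0.230 in keratinocyte-like and 0.543 in vascular endothelial-like cells. Its fibroblast UMIs came mostly from cluster 31, with 9 of 16 in WT and 39 of 55 in KO, where its level was 12.2 CPM in both libraries, and outside it the interval of its ratio includes 1. Col15a1 had 2.39 in fibroblast-like, 0.456 in keratinocyte-like and 0.142 in vascular endothelial-like cells.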

How the results depend on the processing

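No paired analysis was possible because each genotype has 1 library. All values are KO over WT, and counts of members stand here without the share over all genes. The number of members measured also differs between settings. In fibroblast-like cells the collagen ratio of 1.27 was 1.10 with classes taken from clusters (3 members lower) and 1.37 with a stricter gate (2 lower). It was 1.25 without the highest doublet scores (3 lower) and 1.16 scaled by the median ratio (3 lower). The ratio was 1.34 with cells thinned to 1000 UMIs (7 higher and 2 lower of 20 measured) and 1.31 as a mean over cells. It was 1.39 outside cluster 31 (2 lower) and 1.26 in gated cells of a cluster with the same name. At 2-fold 7 of 29 members were higher. Without possible free RNA 9 of 23 were higher and 0 lower, and with 1 UMI in each library 16 of 38 were higher and 3 lower. In the Pi16 and Dpp4 subset the ratio was 1.5 (3 lower), and in the cells of neither subset 2 were lower.

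Alternatives within clusters, outside cluster 31, and the gated cells of a cluster with the same name were chosen after seeing the data. Fibroblast-like cells had ratios of 2.69 in cluster 3, 2.14 in cluster 12 (2 lower) and 1.59 in cluster 18 (2 lower). Cluster 11 reversed the ratio (0.612, 6 higher, 13 lower) and with it Col1a1 (0.384), Col3a1 (0.323) and Col7a1 (0.827). Col11a1 reversed in cluster 3 (0.342) and Col11a2 in cluster 12 (0.749). The cause was not tested.

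In keratinocyte-like cells the ratio of 0.755 was 0.775 with classes from clusters (7 lower) and 0.736 scaled by the median ratio. Thinning gave 2 higher and 7 lower of 18 measured, with Col9a3 at 0.959. At 2-fold 5 of 32 were lower, and leaving out possible free RNA gave 3 higher and 0 lower of 8. The ratio was 0.797 in the basal, 0.623 in the follicle (1 higher, 6 lower, Col12a1 1.79) and 0.563 in the suprabasal subset (2 higher). In cells of neither subset it was 0.947 (2 higher, 4 lower, Col1a2 1.03). Within clusters it was 1.02 in cluster 5 (3 lower, Col12a1 2.09), 1.09 in cluster 8 (3 lower, Col1a2 1.33, Col5a3 1.21), 1.34 in cluster 10 (1 lower) and 0.898 in cluster 14 (3 higher, 3 lower). In cluster 10, Col1a2 was 1.84, Col5a3 2.67, Col6a1 1.20 and Col6a3 1.92. In the keratinocyte-like cells of cluster 14, which sebaceous gland-like cells share, Col1a2 was 1.18 on 15 and 8 UMIs, Col6a1 2.21 and Col6a3 2.21. Cluster 20 gave 1.03 (12 higher, 0 lower), with Col1a2 at 1.83, Col6a1 at 1.02, Col6a3 at 1.56 and Col12a1 at 1.84. Cluster 21 gave 0.841 (2 lower), with Col1a2 at 2.63 and Col6a1 at 1.31, and cluster 9 had 4 higher. Several of these single-gene values rest on few UMIs. Under 20 over both libraries were counted for Col5a3 in clusters 8 and 10, Col6a1 and Col6a3 in cluster 14 and Col6a3 in cluster 20. The cause was not tested.

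The vascular ratio of 0.955 was 1.05 without the highest doublet scores, 0.816 thinned (0 higher and 0 lower of 2 measured, Col1a1 0.650 on 3 and 4 UMIs) and 0.811 as a mean over cells, and without possible free RNA 5 members were higher. The sebaceous gland-like ratio was 1.46 thinned, with Col17a1 at 2.92 on 1 and 4 UMIs, and 1.74 as a mean over cells, and its median log2 ratio was 0.31 without the highest doublet scores. With classes from clusters, the melanocyte-like ratio was 1.06 and in monocyte and macrophage-like cells Col5a2 was 1.22 and Col6a1 1.20. The T cell-like ratio was 0.930 as a mean over cells. Classes from clusters gave no value for sebaceous gland-like cells. Of 311 single-gene values in fibroblast-like cells, 180 stayed within the counting interval, 126 moved outside it without such a reversal, and 5 reversed.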
